A study of Mus musculus with 21 samples.

Results

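Kit and the receptors through which myeloid growth factors and cytokines act were followed in sorted mouse bone marrow cells with and without Dot1l, the gene of a histone methyltransferase. The 10 genes were taken from a fixed list, namely Kit, Csf1r, Csf2ra, Csf2rb, Csf2rb2, Csf3r, Il3ra, Il6ra, Il6st and Il1rl1. The array annotation gave 18 probe sets to 9 of them alone, among 18194 measured genes in all, and the brightest probe set of each gene, on average over the 21 arrays, stood for that gene. No probe set was named for Il1rl1, the gene of the IL-33 receptor chain ST2, so it is not analysed here, and 1 further probe set was annotated to Csf2rb2 and Csf2rb together.

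All cells came from C57/BL6 mice that carried the Mx-Cre transgene and had been injected with PIPC, which switches this Cre on. GMP-Dot (4 arrays) and LSK-Dot (6 arrays) came from Dot1l fl/fl x Mx-Cre mice, in which both floxed copies of Dot1l were deleted, and GMP-Control (5 arrays) and LSK-Control (6 arrays) from mice labelled Dot1 wt/wt x Mx-Cre. GMP are granulocyte-macrophage progenitors, and LSK cells, sorted as lineage-negative cells with Sca-1 and Kit on their surface, include the blood stem cells. Mx-Cre acts wherever the interferon response reaches, so deletion was not limited to the sorted cells, and the labels used here give neither the share of cells that escaped it nor the age of the mice. Whether every array had its own animal is not stated in the labels, and the p-values therefore reflect only how far these samples varied, which may be technical. Each GMP array shares the K number of its title with an LSK array of the same genotype. The labels do not say what that number is, and the main fit did not pair arrays by it. The study asked what deletion of Dot1l does to expression in each of the cell types.

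These receptors tell a progenitor which signals to follow. Kit and Csf1r are receptor tyrosine kinases, for stem cell factor and for M-CSF and IL-34. The GM-CSF and IL-3 receptors each pair a private chain that binds the ligand (Csf2ra, Il3ra) with the shared beta chain Csf2rb, and mice have an extra beta chain, Csf2rb2, that serves IL-3 alone. Csf3r is the G-CSF receptor, Il6ra binds IL-6, and Il6st (gp130) carries the signal of IL-6 and its relatives. The cytokine receptors signal through JAK kinases and STAT factors. Stem cells are known for high Kit, and commitment to the granulocyte and macrophage fates is known for a gain of the myeloid receptors, which PU.1 and C/EBP factors help to switch on.

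The sequences just upstream of a transcript start of 3 of these genes are shown. The first 2 genes differed between the cell types by the test, and the arrays of the last did not overlap between GMP-Dot and GMP-Control. They are the 250 bases before the transcript start in RefSeq (build GRCm38.p6), read 5′ to 3′ on the gene's own strand, at chr5:75574737-75574986 for Kit (plus strand), chr19:61228419-61228668 for Csf2ra (minus strand) and chr14:14346245-14346494 for Il3ra (plus strand). Capitals mark matches, on either strand, to GATAA (GATA factors), GAGGAA (PU.1), TTGCNNAA (C/EBP factors), TTCNNNGAA (STAT factors) or CAGCTG (an E-box).
Kit: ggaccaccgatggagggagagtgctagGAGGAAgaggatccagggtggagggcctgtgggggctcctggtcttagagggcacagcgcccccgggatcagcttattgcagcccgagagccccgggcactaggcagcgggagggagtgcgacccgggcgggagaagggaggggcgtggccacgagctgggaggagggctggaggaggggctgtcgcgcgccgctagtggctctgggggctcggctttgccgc
Csf2ra: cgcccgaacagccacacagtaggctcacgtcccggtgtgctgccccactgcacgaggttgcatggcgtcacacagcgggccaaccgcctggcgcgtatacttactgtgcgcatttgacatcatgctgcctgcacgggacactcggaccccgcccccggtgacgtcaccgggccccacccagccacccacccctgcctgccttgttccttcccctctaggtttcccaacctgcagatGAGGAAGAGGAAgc
Il3ra: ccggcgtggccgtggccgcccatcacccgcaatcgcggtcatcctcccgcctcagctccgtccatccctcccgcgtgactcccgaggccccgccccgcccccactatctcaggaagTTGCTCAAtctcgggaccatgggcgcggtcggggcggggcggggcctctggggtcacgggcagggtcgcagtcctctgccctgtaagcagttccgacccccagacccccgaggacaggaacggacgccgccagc

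The Kit window held 1 PU.1 match, whose first base lies at -223 from the transcript start. The Csf2ra window held 2, directly in tandem, with first bases at -14 and -8. The RefSeq span of Csf2ra, on the minus strand, reaches to 61228461, so both matches lie inside the gene. The Il3ra window held 1 C/EBP match, starting at -134. The RefSeq span of Il3ra begins at 14345912, so that whole window lies inside the gene. Only the Kit window lies wholly outside the span of its gene among those shown. Among all 32851 promoters of the table, windows of this length held the PU.1 letters in 23.25%, the C/EBP letters in 9.564%, the GATA letters in 22.58%, the STAT letters in 7.02% and the E-box in 13% of cases. Of the 10 genes, 8 had an entry, and the Csf2rb2 window held 1 match each for GATA, PU.1 and STAT factors. The Il6st window held no match to any of these letters.

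The arrays differed in quality. The LSK-Dot array of K1272 stood apart: its mean Spearman correlation with its own group was 0.684, against 0.811 to 0.943 for the other 20 arrays with theirs, and it had the lowest upper quartile of all arrays, 6.18 on the log2 scale. Its level of Cd34, a gene of stem and progenitor cells, was 5.20, whereas the other LSK-Dot arrays had 9.52 to 10.38. It also had the highest Cebpa of its group (11.32) and the lowest Flt3 (5.51), levels found among the GMP arrays, but the highest Gata2 (9.80), a level above all GMP arrays. Its levels thus go against its label for some genes and not for others, so the label is in doubt. It was kept as labelled, and for several results that rest on it the value without it is given as well. Others, such as Cebpa in LSK, are given only with it. The GMP-Dot arrays K1190 and K1272 were the closest pair of all, with a Spearman correlation of 0.982. Neither probe set of Dot1l itself separated the genotypes (log2 difference -0.52 and -0.54 in GMP and -0.10 and -0.19 in LSK, limma adjusted p over all probe sets 0.348 to 0.991), and since their place relative to the deleted exons is unknown here, they do not check the labels. The GMP marker Fcgr3 averaged 9.82 in GMP-Dot and 7.44 in LSK-Dot, and 9.88 in GMP-Control and 7.02 in LSK-Control. Its relative Fcgr2b separated the cell types less clearly. It averaged 9.51 in GMP-Dot and 7.75 in LSK-Dot, and 7.62 in GMP-Control (lowest 4.83) and 6.06 in LSK-Control. Cd34 varied in GMP-Control from 6.30 to 9.40, against 8.43 to 9.78 in GMP-Dot. Ly6a, the gene of Sca-1, is not analysed here.

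Between the control cell types, Kit fell and Csf2ra rose in GMP-Control relative to LSK-Control, by the limma test at an adjusted p under 0.05. These were 2 of the 9 measured receptor genes, against 12.0% of all genes called in that comparison, and in each direction 1 receptor gene was called, against 7.03% of all genes higher and 4.95% lower. With Dot1l deleted, 0 of the 9 were called between GMP-Dot and LSK-Dot, against 0.143% of all genes. Deletion itself gave 0 calls among the 9 in GMP, where 0.143% of all genes were called, and 0 in LSK, where limma called 0 genes of any kind and 5.61% of all genes had an unadjusted p under 0.05. Without LSK-Dot K1359, 33 genes were called in LSK, none of them among the 9. The unadjusted p was under 0.05 for 3 receptor genes in GMP (Csf2ra, Il3ra and Il6st), against 13.9% of all genes, and for 2 in LSK (Kit and Csf2rb2). For the difference between the deletion effects in the cell types, 0 of the 9 were called, against 0.0330% of all genes. The median difference of the 9 genes was -0.42 in GMP, beside -0.20 for all genes, -0.09 in LSK, beside 0.06 for all genes, and 0.81 for GMP-Control against LSK-Control, beside 0.29 for all genes. All levels are log2 intensities, and a difference of 1 on that scale is a doubling. In bulk RNA, fewer cells of a type and less RNA per cell cannot be told apart.

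**Figure D1:**
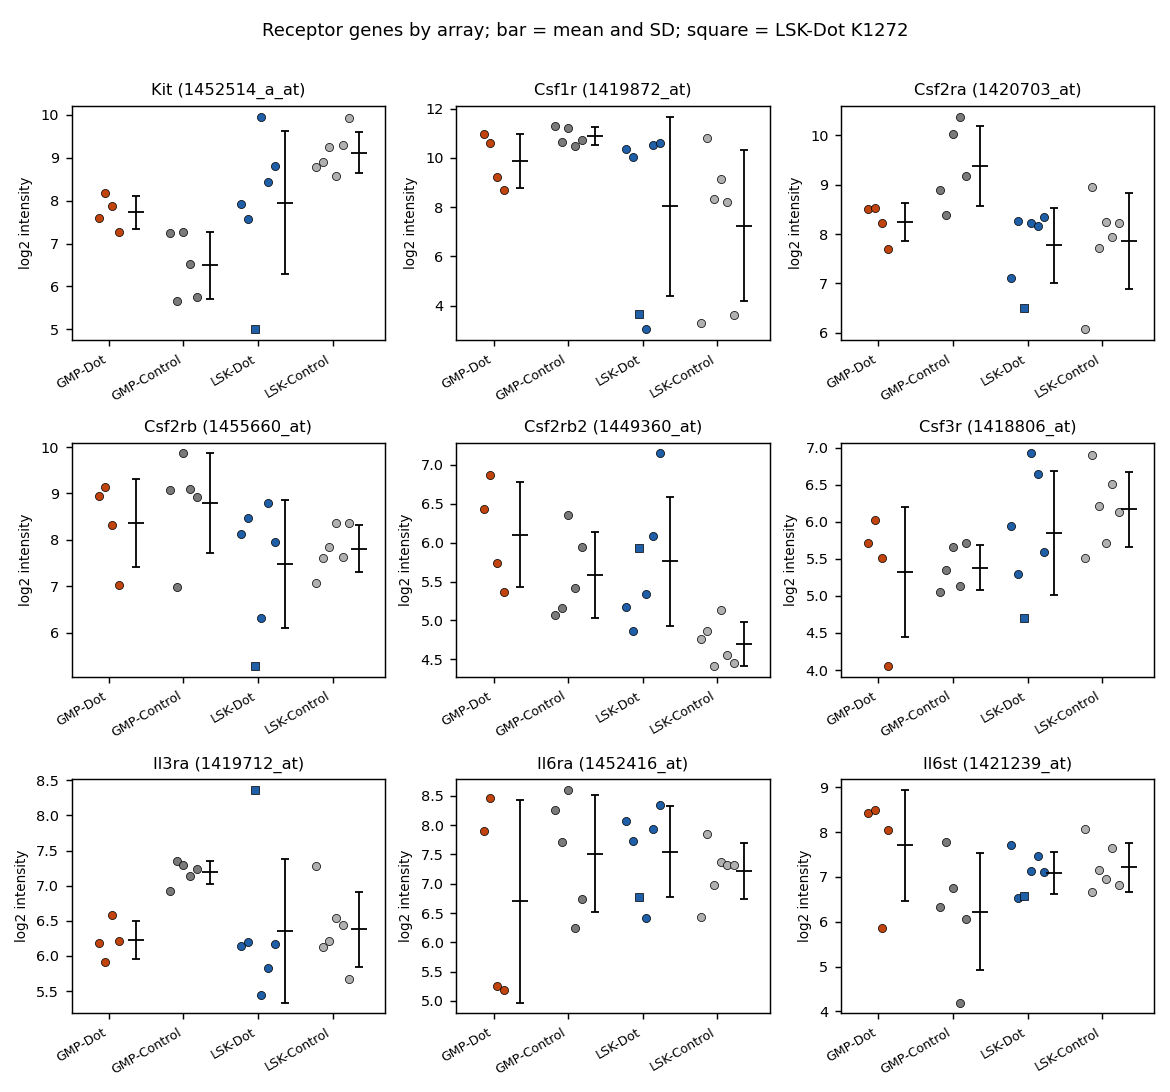
Log2 intensity of the 9 measured receptor genes on each of the 21 arrays, by group; each point is 1 array, the square is LSK-Dot K1272, and the bar gives the mean and SD. Kit levels in GMP-Control lie below all LSK-Control levels, and Csf1r shows 2 LSK-Dot and 2 LSK-Control arrays under 4 while the other arrays lie above 8.

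Kit, the receptor for stem cell factor, is also one of the markers by which LSK cells were sorted. Its levels in GMP-Dot were 7.26, 7.59, 7.88 and 8.17, against 5.66, 5.75, 6.53, 7.24 and 7.27 in GMP-Control. In LSK-Dot they ran over 5.0, with a median of 8.18, to 9.96, against 8.57, with a median of 9.07, to 9.93 in LSK-Control. The GMP-Control arrays all lay below the LSK-Control arrays, as was the case for 3.43% of all genes, whereas GMP-Dot lay inside the range of LSK-Dot, and the lowest GMP-Dot array lay just under the highest GMP-Control array.

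Kit was lower in GMP-Control than in LSK-Control by a log2 difference of -2.63 ± 0.58 (SE), a 6.19-fold difference, with an adjusted p of 0.00795. Between GMP-Dot and LSK-Dot the difference was -0.22, with a 95% confidence interval of -1.52 to 1.08. The test of whether these contrasts differ, which is the deletion effect in GMP minus that in LSK, gave 2.41 ± 0.85, with an unadjusted p of 0.0106 and an adjusted p of 0.289, so it did not pass. The 2 parts of it were 1.24 ± 0.65 for GMP-Dot against GMP-Control (adjusted p = 0.385) and -1.17 ± 0.56 for LSK-Dot against LSK-Control (adjusted p = 0.887). Without LSK-Dot K1272, which had the lowest level of its group, the LSK effect was -0.58 and GMP-Dot differed from LSK-Dot by -0.81, neither of them called. With single arrays left out, the difference of the deletion effects ran over 1.82 to 2.81, also uncalled. When each array's upper quartile entered the fit, GMP-Control differed from LSK-Control by -1.46 (adjusted p = 0.178). That quartile was 6.19 to 6.57 in GMP-Control and 6.60 to 6.76 in LSK-Control, so the array's spread of levels and the cell type cannot be told apart. With the K number as a replicate block, the difference between the control cell types was -2.70 and not called (adjusted p = 0.0662).

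The second Kit probe set, 1415900_a_at, also put GMP-Control below LSK-Control, by -1.88 ± 0.49 (adjusted p over all probe sets 0.0237). In GMP-Dot it had 4.60, 4.86, 6.68 and 6.80, against 3.82, 6.14, 6.38, 6.51 and 6.82 in GMP-Control. These arrays overlapped, and the difference of -0.20 ± 0.55 had the opposite sign to that of the main probe set. Between GMP-Dot and LSK-Dot it differed by -1.24 ± 0.52 (adjusted p = 0.656), and the deletion effect in GMP minus that in LSK was 0.64, against 2.41 for the main probe set. The pair correlated at a Pearson r of 0.47 over the 21 arrays. On LSK-Dot K1272 they stood at opposite ends of the group, the main one lowest at 5.0 and the second highest at 7.99.

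Csf1r, the M-CSF receptor and a gene of the macrophage fate, had levels in GMP-Dot of 8.70, 9.23, 10.62 and 10.97, against 10.47, 10.65, 10.74, 11.21 and 11.31 in GMP-Control. Among LSK arrays the levels split widely in both genotypes. In LSK-Dot they were 3.03 for K1359 and 3.68 for K1272, and 10.02 to 10.61 on the other 4 arrays. In LSK-Control they were 3.28 for K1553 and 3.63 for K1604, and 8.22 to 10.82 on the other 4. A range as wide as that of Csf1r, 7.58 in LSK-Dot and 7.54 in LSK-Control, was found for 0.0440% and 0.0220% of all genes.

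With such spread the Csf1r tests were weak. GMP-Control differed from LSK-Control by 3.63 ± 1.47 (adjusted p = 0.0990), GMP-Dot from GMP-Control by -1.0 ± 1.63 (adjusted p = 0.756), and LSK-Dot from LSK-Control by 0.79 ± 1.40 (adjusted p = 0.985). With single arrays left out, the LSK value ran over 0.00084 without LSK-Control K1553 to 1.79 without LSK-Dot K1359. Without both LSK-Dot K1272 and K1359, a choice made after the data were seen, LSK-Dot differed from LSK-Control by 3.13 (adjusted p = 0.348), GMP-Dot from LSK-Dot by -0.50, and the difference between the control cell types was called (adjusted p = 0.0170). The other 2 probe sets were less split. For 1423593_a_at the GMP-Control arrays (5.99, 6.65, 6.99, 7.22 and 7.23) lay above the LSK-Control arrays (4.69, with a median of 5.41, to 5.62), a difference of 1.55 ± 0.38 that was called over all probe sets (adjusted p = 0.0164). For 1419873_s_at that difference was 1.39 ± 0.60 (adjusted p = 0.126). The deletion effects of 1423593_a_at were 0.79 ± 0.36 in LSK and -0.66 ± 0.42 in GMP, and those of 1419873_s_at 1.04 ± 0.58 and 0.10 ± 0.67. The effect in GMP minus that in LSK was -1.44 ± 0.55 for 1423593_a_at (limma unadjusted p = 0.0165, adjusted p over all probe sets 0.352) and -0.94 ± 0.88 for 1419873_s_at. None of these passed the adjusted test. The 8 measured monocyte and macrophage markers had a mean level on the 4 LSK arrays with Csf1r under 4 of 6.11 and 6.40 (LSK-Dot K1272 and K1359) and of 6.35 and 6.64 (LSK-Control K1553 and K1604), within group ranges of 6.11 to 7.97 in LSK-Dot and 6.32 to 8.03 in LSK-Control. Whether macrophage lineage cells have a part in the Csf1r split was not tested.

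**Figure D2:**
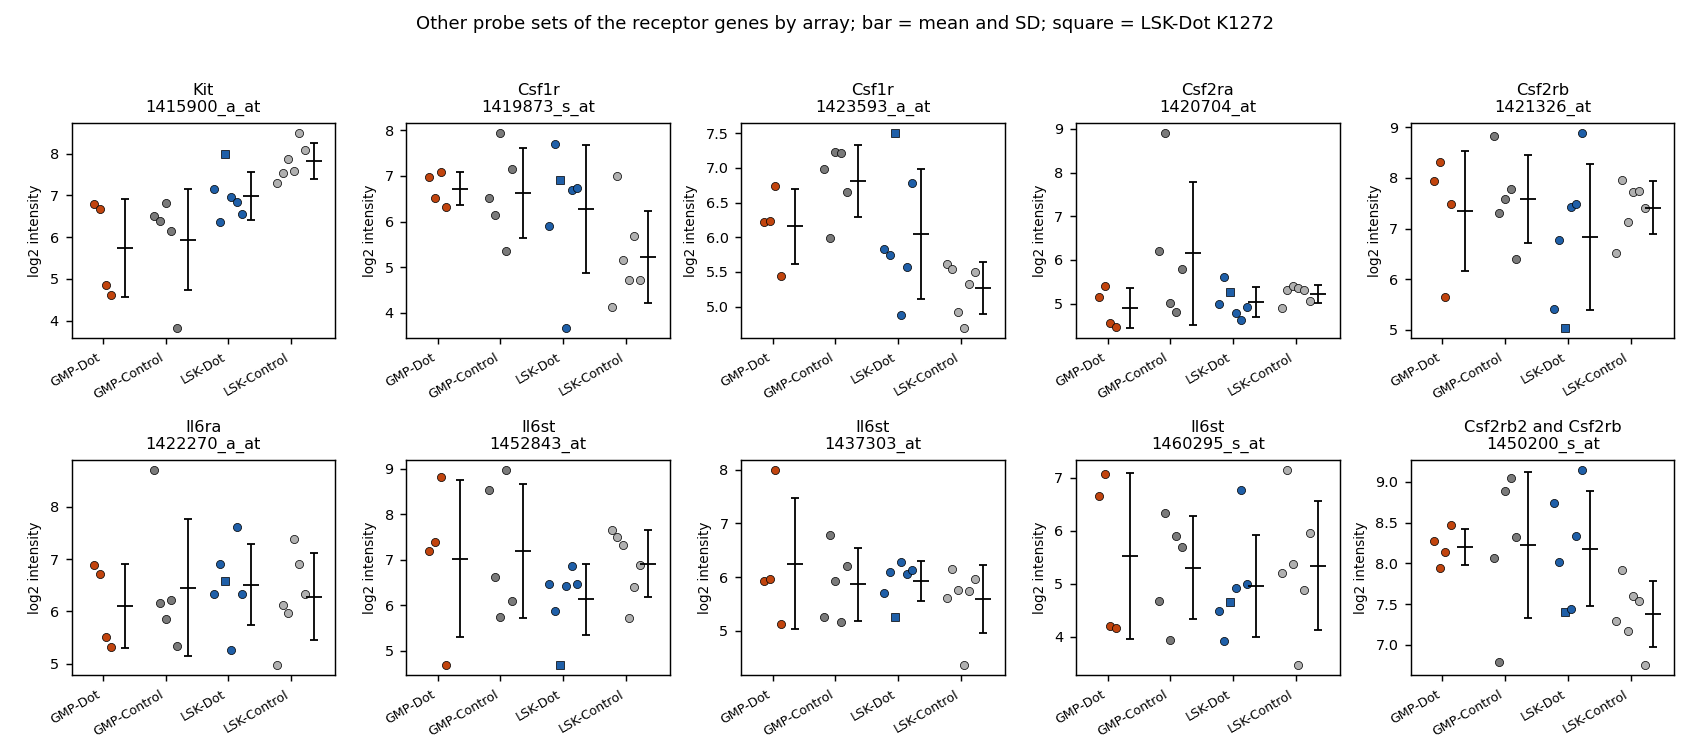
Log2 intensity of the other 9 probe sets of single receptor genes and of the 1 shared by Csf2rb2 and Csf2rb, on each array; the square is LSK-Dot K1272, and the bar gives the mean and SD. The second Kit probe set shows the step between the control cell types (-1.88) and no step between GMP-Dot and GMP-Control (-0.20).

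Csf2ra, the chain that binds GM-CSF, had levels in GMP-Dot of 7.71, 8.22, 8.50 and 8.53, against 8.39, 8.90, 9.18, 10.03 and 10.38 in GMP-Control. In LSK-Dot they ran over 6.51, with a median of 8.19, to 8.35, and in LSK-Control over 6.07, with a median of 8.08, to 8.95. GMP-Control thus reached the highest levels, while GMP-Dot lay within the LSK-Control range and overlapped LSK-Dot.

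Csf2ra was higher in GMP-Control than in LSK-Control by 1.52 ± 0.46, a 2.87-fold difference (adjusted p = 0.0378), though their arrays overlapped. The call was close to the threshold. It was lost without any 1 of LSK-Control K1553, K1601, K1603 or K1604 or of GMP-Control K1602, K1603 or K1604 (1.16 to 1.59, adjusted p 0.0531 to 0.110). It was also lost after each array was centred on its median (1.45, adjusted p = 0.0538) and with the K number as a replicate block (1.16, adjusted p = 0.184). GMP-Dot differed from GMP-Control by -1.14 ± 0.51 (unadjusted p = 0.0370, adjusted p = 0.334), and GMP-Dot from LSK-Dot by 0.47 (confidence interval -0.55 to 1.49). LSK-Dot differed from LSK-Control by -0.09 ± 0.44, and by 0.16 without K1272. The dim second probe set, 1420704_at, put GMP-Control above LSK-Control by 0.93 ± 0.49, which was not called (adjusted p over all probe sets 0.192). It differed between GMP-Dot and GMP-Control by -1.25 ± 0.54. Both values were carried by GMP-Control K1601 at 8.91, where the other 4 controls had 4.82 to 6.21. It correlated with the main probe set at only 0.10.

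Il3ra, the chain that binds IL-3, was the 1 receptor gene whose groups did not overlap between genotypes. Its levels in GMP-Dot were 5.91, 6.19, 6.22 and 6.58, against 6.92, 7.14, 7.24, 7.29 and 7.34 in GMP-Control. Every GMP-Dot array lay below every GMP-Control array, as was the case in that direction for 2.97% of all genes. The difference of -0.96 ± 0.42 (unadjusted p = 0.0324) had an adjusted p of 0.325, and of 0.0524 without LSK-Dot K1272, whose level stood far above the rest of its group.

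In LSK-Dot the Il3ra levels ran over 5.45, with a median of 6.16, to 8.36, and in LSK-Control over 5.67, with a median of 6.33, to 7.28. K1272 held the 8.36, and the next LSK-Dot array was at 6.20. LSK-Dot differed from LSK-Control by -0.02 (confidence interval -0.77 to 0.73), and by -0.42 without K1272. GMP-Control differed from LSK-Control by 0.81 ± 0.38 (adjusted p = 0.140), a difference that was called without K1272 (adjusted p = 0.0155) and was 0.07 with each array's upper quartile in the fit (adjusted p = 0.946, the highest over the alternatives, the lowest being 0.0110). GMP-Dot differed from LSK-Dot by -0.13 ± 0.40. Csf2ra and Il3ra, both private chains paired with Csf2rb, had deletion effects in GMP of the same sign and like size (-1.14 and -0.96), and neither passed the adjusted test.

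Il6ra, the chain that binds IL-6, split within GMP-Dot, with 5.18 and 5.25 on K1421 and K1359 and 7.91 and 8.46 on K1190 and K1272. In GMP-Control its levels were 6.25, 6.74, 7.71, 8.27 and 8.60. In LSK-Dot they ran over 6.41, with a median of 7.83, to 8.35, and in LSK-Control over 6.43, with a median of 7.33, to 7.85. The groups overlapped in each comparison, and the deletion effects were -0.82 ± 0.63 in GMP (adjusted p = 0.520) and 0.33 ± 0.54 in LSK (adjusted p = 0.985). The GMP value was -1.40 without GMP-Dot K1272 and -0.31 without GMP-Dot K1421. The second probe set, 1422270_a_at, gave -0.35 and 0.23.

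The shared beta chain Csf2rb had 7.04, 8.32, 8.96 and 9.14 in GMP-Dot, against 6.98, 8.93, 9.07, 9.09 and 9.87 in GMP-Control. In LSK-Dot it ran over 5.28, with a median of 8.03, to 8.79, and in LSK-Control over 7.06, with a median of 7.74, to 8.37. The groups overlapped throughout. The deletion effects were -0.42 ± 0.65 in GMP and -0.33 ± 0.56 in LSK, and the LSK value was 0.11 without K1272, the lowest array. GMP-Control differed from LSK-Control by 0.97 ± 0.59 (adjusted p = 0.233). That difference was called at 2.30 with the upper quartile in the fit (adjusted p = 0.0214) and at 1.14 with array weights (adjusted p = 0.0424). Its adjusted p ran over 0.0214 to 0.430 for all alternatives. The second probe set, 1421326_at, gave only 0.16 ± 0.60 there (adjusted p over all probe sets 0.859). Its deletion effects were -0.23 ± 0.66 in GMP and -0.58 ± 0.57 in LSK, and their difference was 0.35, against -0.09 for the main probe set.

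Csf2rb2, the beta chain for IL-3 alone, had 4.86, with a median of 5.64, to 7.15 in LSK-Dot, against 4.41, with a median of 4.66, to 5.13 in LSK-Control. In these groups 5 of the 6 LSK-Dot arrays lay above the highest LSK-Control array. The difference was 1.06 ± 0.35, or 2.09-fold, with the smallest unadjusted p of the receptor genes for deletion (0.00592), but its adjusted p was 0.579. It was 1.03 without K1272. In GMP-Dot the levels were 5.37, 5.74, 6.43 and 6.87, against 5.07, 5.15, 5.41, 5.95 and 6.36 in GMP-Control, a difference of 0.52 ± 0.40. The probe set shared with Csf2rb gave 0.80 ± 0.35 in LSK (adjusted p over all probe sets 0.879) and -0.02 ± 0.41 in GMP. The Csf2rb2 probe set was a dim one, and its mean stood at percentile 71.2 of all probe sets in GMP-Dot, 64.5 in GMP-Control, 65.2 in LSK-Dot and 48.4 in LSK-Control.

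Il6st, the gp130 chain, had 5.87, 8.04, 8.42 and 8.49 in GMP-Dot, against 4.19, 6.07, 6.33, 6.75 and 7.78 in GMP-Control. Of the 4 GMP-Dot arrays, 3 lay above every control, and K1359 lay among the low controls. The difference of 1.48 ± 0.58 (2.79-fold, unadjusted p = 0.0186) had an adjusted p of 0.278. In LSK-Dot the levels ran over 6.54, with a median of 7.12, to 7.72, and in LSK-Control over 6.65, with a median of 7.06, to 8.08, a difference of -0.13 ± 0.50.

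The other 3 Il6st probe sets did not show that GMP difference. They gave 0.39 ± 0.47 (1437303_at), -0.17 ± 0.74 (1452843_at) and 0.22 ± 0.73 (1460295_s_at). Their correlations with the main probe set over the 21 arrays were -0.03, -0.35 and 0.19. On GMP-Dot K1359, the array with the lowest main value, 1437303_at and 1452843_at had their highest GMP-Dot values, 8.0 and 8.82.

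Csf3r, the G-CSF receptor, had 4.05, 5.50, 5.72 and 6.02 in GMP-Dot, against 5.06, 5.13, 5.35, 5.66 and 5.72 in GMP-Control. In LSK-Dot it ran over 4.70, with a median of 5.76, to 6.92, and in LSK-Control over 5.52, with a median of 6.17, to 6.91. Deletion gave -0.06 ± 0.43 in GMP (confidence interval -0.96 to 0.84) and -0.32 ± 0.37 in LSK (-1.09 to 0.45). K1272 held the lowest LSK-Dot level, and with single arrays left out the LSK value ran over -0.53 to -0.09. GMP-Control differed from LSK-Control by -0.78 ± 0.39 (adjusted p = 0.158), the sign opposite to that of Csf2ra and Csf1r. The same difference was 0.89 ± 0.36 for Csf2rb2 (adjusted p = 0.10), -0.99 ± 0.52 for Il6st (adjusted p = 0.179) and 0.30 ± 0.57 for Il6ra (adjusted p = 0.707). Between GMP-Dot and LSK-Dot the 9 differences ran over -0.85 for Il6ra to 1.84 for Csf1r, with adjusted p-values of 0.958 and above.

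**Figure D3:**
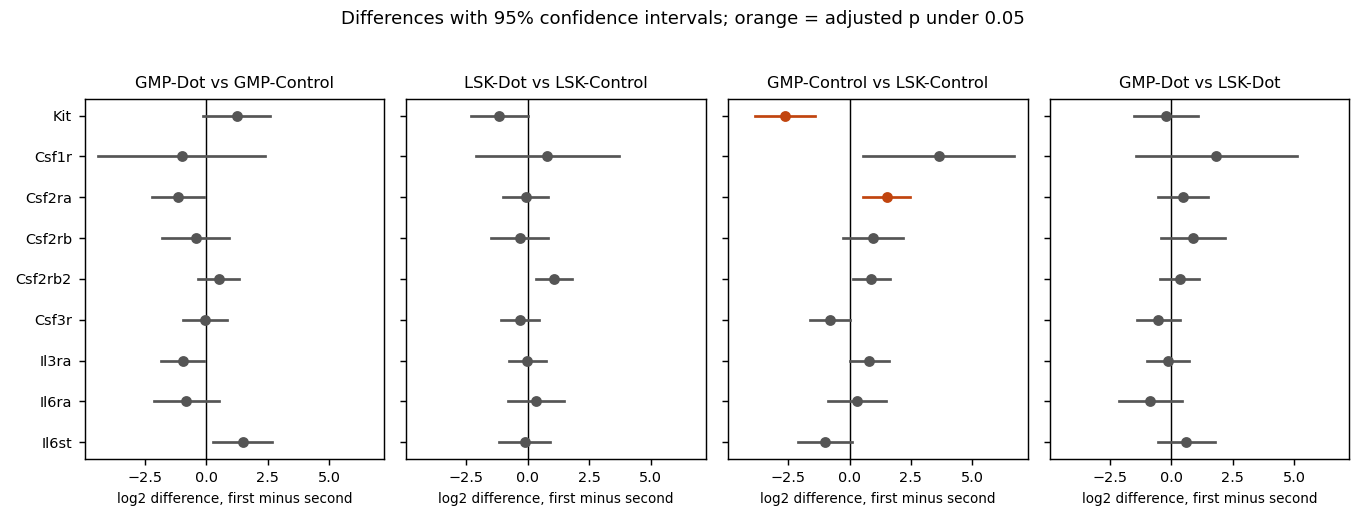
Log2 differences of the 9 receptor genes (first group minus second) with 95% confidence intervals in 4 comparisons; orange marks an adjusted p under 0.05. Only Kit (-2.63) and Csf2ra (1.52) between GMP-Control and LSK-Control are called, and most deletion intervals include 0.

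By group means, Kit was ordered LSK-Control (9.12 ± 0.48, SD, n = 6), LSK-Dot (7.95 ± 1.66, n = 6), GMP-Dot (7.73 ± 0.39, n = 4) and GMP-Control (6.49 ± 0.78, n = 5). Neighbours in that order did not differ by the test. The order of Csf2ra was GMP-Control (9.38 ± 0.82), GMP-Dot (8.24 ± 0.38), LSK-Control (7.86 ± 0.97) and LSK-Dot (7.77 ± 0.77), where GMP-Dot and LSK-Control were not compared and the other neighbours did not differ by the test. For both genes the GMP-Dot mean of the main probe set lay between the means of the control cell types. The same holds for the main probe sets of Csf1r (9.88 in GMP-Dot, 10.88 in GMP-Control and 7.24 in LSK-Control) and Csf2rb (8.36, 8.79 and 7.81), but not for Csf2rb2, Csf3r, Il3ra, Il6ra or Il6st. Another probe set of each of these genes broke that order. GMP-Dot lay below GMP-Control for Kit (5.74 and 5.94) and above it for Csf1r 1419873_s_at (6.72 and 6.62). It lay below LSK-Control for Csf2ra (4.89 and 5.22) and Csf2rb (7.35 and 7.42). Csf1r 1423593_a_at kept the order. The GMP-Dot and GMP-Control comparison shares its controls with the comparison of the control cell types, so values that lie between are not independent of either.

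Of the genes that feed or carry these signals, the ligands stayed without a call for deletion. Among 10 measured ligands, 0 were called in GMP or LSK, with median differences of -0.38 in GMP, beside -0.20 for all genes, and 0.19 in LSK, beside 0.06 for all genes. Il3, the gene of interleukin-3, had the smallest p in GMP, with a dim 3.12 ± 0.44 in GMP-Dot against 4.09 ± 0.60 in GMP-Control (SD), a difference of -0.97 ± 0.34 (adjusted p = 0.245). It was the 1 ligand called between the control cell types, against 12.0% of all genes. The difference was 1.04 ± 0.31 in GMP-Control relative to LSK-Control (adjusted p = 0.0356), at a level below that of the median gene. In LSK the smallest p belonged to Il34, a ligand of Csf1r, at 0.46 ± 0.33 (adjusted p = 0.985), and between GMP-Dot and LSK-Dot to Il33 at 0.14 ± 0.16 (adjusted p = 1).

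Among 17 other cytokine receptors, 3 were called between the control cell types, against 12.0% of all genes. Flt3, a receptor tyrosine kinase of early progenitors, fell by 5.07 on the log2 scale in GMP-Control relative to LSK-Control (adjusted p = 9.56e-05), and Il1r1, an IL-1 receptor, fell by 2.68 (adjusted p = 0.00731). Tnfrsf1a, a TNF receptor, rose by 1.13 (adjusted p = 0.0363). Deletion gave 0 calls among the 17 in either cell type. The smallest p in GMP was that of Tnfrsf1a, with 5.95, 7.80, 8.02 and 8.12 in GMP-Dot, all below the 8.24 to 9.62 of GMP-Control (difference -1.35 ± 0.38, adjusted p = 0.168). Such a lack of overlap in that direction was found for 2.97% of all genes. In LSK it was that of Flt3, with 5.51 to 10.02 in LSK-Dot against 9.52 to 10.57 in LSK-Control (-2.53 ± 0.57, adjusted p = 0.193), and Flt3 was also the first between GMP-Dot and LSK-Dot (-2.73 ± 0.64, adjusted p = 0.102). Of the 6 LSK-Dot arrays, 5 lay below every LSK-Control array for Flt3 and 4 for Kit, and for both genes K1359 was the highest and K1272 the lowest array of LSK-Dot.

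Of 8 measured JAK kinases and STAT factors, only Jak2 was called between the control cell types, where 12.0% of all genes were called. It was lower in GMP-Control by -2.35 ± 0.76 (adjusted p = 0.0491). Its levels in GMP-Dot were 5.17, 5.35, 7.60 and 7.88, against 3.72, 3.74, 5.53, 5.70 and 6.04 in GMP-Control (1.56 ± 0.84, adjusted p = 0.395). The smallest p for deletion in LSK was that of Stat5b, at -0.74 ± 0.43 (adjusted p = 0.985), and between GMP-Dot and LSK-Dot that of Stat3, at -0.71 ± 0.46 (adjusted p = 0.911). The 8 genes had 0 calls for deletion, and their median differences were -0.12 in GMP and -0.74 in LSK, beside -0.20 and 0.06 for all genes. On LSK-Dot K1272 Jak2 stood at 3.49, where the other 5 arrays had 7.72 to 8.51.

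Of 11 measured adaptors and kinases below the receptors, Plcg2, a phospholipase, was lower in GMP-Control than in LSK-Control (-1.59 ± 0.42, adjusted p = 0.0211), and 0 were called for deletion. Plcg2 was the 1 call between the control cell types, against 12.0% of all genes. The smallest p in LSK was again that of Plcg2, with 7.59 to 10.38 in LSK-Dot against 9.44 to 10.71 in LSK-Control (-0.92 ± 0.40, adjusted p = 0.839). In GMP it was that of Nras, the small GTPase gene, at 0.88 ± 0.56 (adjusted p = 0.450), and between GMP-Dot and LSK-Dot that of the adaptor gene Grb2, at -0.45 ± 0.35 (adjusted p = 0.983).

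The 1 gene of these signalling lists that was called for deletion, in GMP only, was a feedback inhibitor. Spred1, which restrains Ras signalling below Kit and other receptors, had 7.98, 8.04, 8.46 and 9.23 in GMP-Dot, against 4.0, 5.03, 5.16, 6.80 and 7.01 in GMP-Control. The difference of 2.83 ± 0.50 was called (adjusted p = 0.0222), as was the case for 0.143% of all genes in GMP. In LSK-Dot Spred1 ran over 7.79 to 8.64, against 7.19 to 9.13 in LSK-Control, a difference of -0.14 ± 0.43. The test of the difference between the effects gave 2.97 ± 0.66 (adjusted p = 0.143), so it did not pass. Spred1 was not recomputed under the alternative settings. Over all genes, the calls in GMP fell from 26 to 9 when GMP-Dot K1190 and K1272 were averaged. Between the control cell types Spred1 was lower in GMP-Control by -2.70 ± 0.45 (adjusted p = 0.000997), while GMP-Dot differed from LSK-Dot by 0.26 ± 0.48. The 14 feedback inhibitors had 1 call in GMP and 0 in LSK, where Cbl, a ubiquitin ligase for these receptors, had the smallest p (-1.18 ± 0.74, adjusted p = 0.985). Dok2 had the smallest p between GMP-Dot and LSK-Dot (-2.24 ± 0.65, adjusted p = 0.208).

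Of 8 measured transcription factors known to act at the receptor genes, 3 were called between the control cell types, against 12.0% of all genes. Cebpa, the C/EBP factor of the granulocyte and macrophage path, was higher in GMP-Control by 3.27 ± 0.56, and Gata2 and Tal1, factors of stem and early progenitor cells, were lower by -2.92 ± 0.49 and -2.76 ± 0.44 (adjusted p 0.00118, 0.00114 and 0.000651). Deletion gave 0 calls. Cebpa had 9.70, 9.92, 9.98 and 10.19 in GMP-Dot, below all 5 GMP-Control arrays at 10.48 to 11.97, as for 2.97% of all genes (difference -1.20 ± 0.61, adjusted p = 0.378). In LSK-Dot it averaged 9.60 ± 1.09 (SD), with the highest level, 11.32, on K1272, against 7.88 ± 1.28 in LSK-Control (1.71 ± 0.53, adjusted p = 0.515). Its deletion effect in GMP minus that in LSK was -2.92 ± 0.81 (adjusted p = 0.194), and GMP-Dot and LSK-Dot differed by 0.35 ± 0.59. Gata1 had the smallest p for deletion in GMP (-0.96 ± 0.44, adjusted p = 0.343) and between GMP-Dot and LSK-Dot (-1.97 ± 0.42, adjusted p = 0.0760). Spi1, the gene of PU.1, differed between the control cell types by 1.32 ± 0.44, with an adjusted p of 0.0557.

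**Figure D4:**
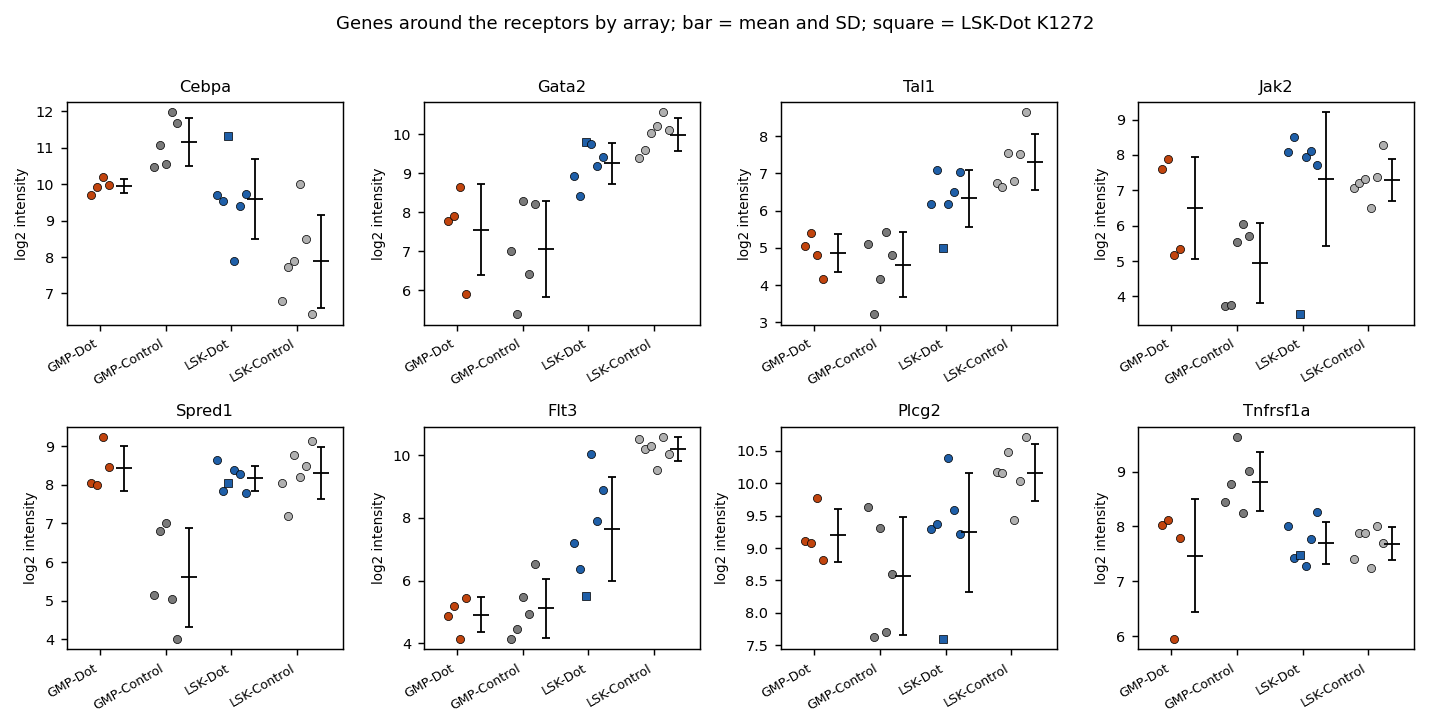
Log2 intensity of 8 genes around the receptors on each array, by group; the square is LSK-Dot K1272, and the bar gives the mean and SD. Spred1 lies at 7.98 and above in GMP-Dot and at 7.01 and below in GMP-Control, while Cebpa lies at 10.19 and below in GMP-Dot and at 10.48 and above in GMP-Control.

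For the difference of the deletion effects (GMP minus LSK), the named genes of the remaining lists were also without a call. They were Il3 (-1.23 ± 0.45, adjusted p = 0.299), the IL-10 receptor gene Il10ra (-1.34 ± 0.45, adjusted p = 0.266), Tyk2 (-0.86 ± 0.58, adjusted p = 0.453) and Plcg2 (1.55 ± 0.62, adjusted p = 0.322).

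The mean levels of some marker lists of other cell types differed between these groups. How often lists of other genes lack overlap was not computed. The 9 measured late neutrophil markers had a mean level of 6.56 to 7.42 in GMP-Dot and 7.57 to 8.18 in GMP-Control, without overlap, and of 5.69 to 7.53 in LSK-Dot and 7.35 to 11.77 in LSK-Control. The highest LSK-Control array, K1581, also had the highest Csf1r (10.82), Csf2ra (8.95), Csf3r (6.91) and Il6ra (7.85) of its group. The 9 mast cell and basophil markers, cells that carry Kit and Il3ra, lay at 5.50 to 6.51 in GMP-Dot and 5.49 to 6.82 in GMP-Control, and at 5.67 to 6.60 in LSK-Dot and 5.29 to 5.72 in LSK-Control. The 8 monocyte and macrophage markers lay at 7.36 to 8.09 in GMP-Dot and 6.94 to 8.20 in GMP-Control. The 7 B cell markers lay at 4.60 to 5.09 in GMP-Dot and 5.31 to 6.0 in GMP-Control, and the 9 endothelial and stromal markers at 4.85 to 5.24 in LSK-Dot and 5.31 to 5.78 in LSK-Control, both without overlap. Most of these markers were dim. In each of those groups 5 of the 7 B cell markers and 6 of the 9 endothelial and stromal markers averaged below the median gene. The dendritic, erythroid, megakaryocyte, and T and NK lists overlapped between the genotypes in each cell type. The 5 eosinophil markers overlapped, at 4.74 to 5.39 in GMP-Dot and 4.76 to 5.70 in GMP-Control. Their median difference was -0.11, beside -0.20 for all genes. Among them only Prg2, a granule protein gene, was called, against 0.143% of all genes in GMP. It fell to 5.44 ± 0.32 in GMP-Dot against 8.64 ± 0.93 in GMP-Control (SD), a difference of -3.20 ± 0.63 (adjusted p = 0.0465). That call was close to the threshold and was not recomputed under the alternative settings. The part of such cells in the receptor values was not tested.

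Over the 21 arrays the 9 receptor genes did not move as one. The highest Pearson correlations among the 36 pairs were those of Csf2ra with Csf2rb (0.68), Csf1r with Csf2rb (0.68), Kit with Csf3r (0.67) and Csf1r with Csf2ra (0.60). The lowest was that of Kit with Il3ra (-0.78). These are descriptions over arrays that share 2 cell types, 2 genotypes and their array quality. Within GMP-Dot the array K1272 held the highest value of 7 of the 9 genes and K1421 the lowest of 7. Within LSK-Dot K1272 held the lowest value of 4, and within LSK-Control K1553 the lowest of 5.

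**Figure D5:**
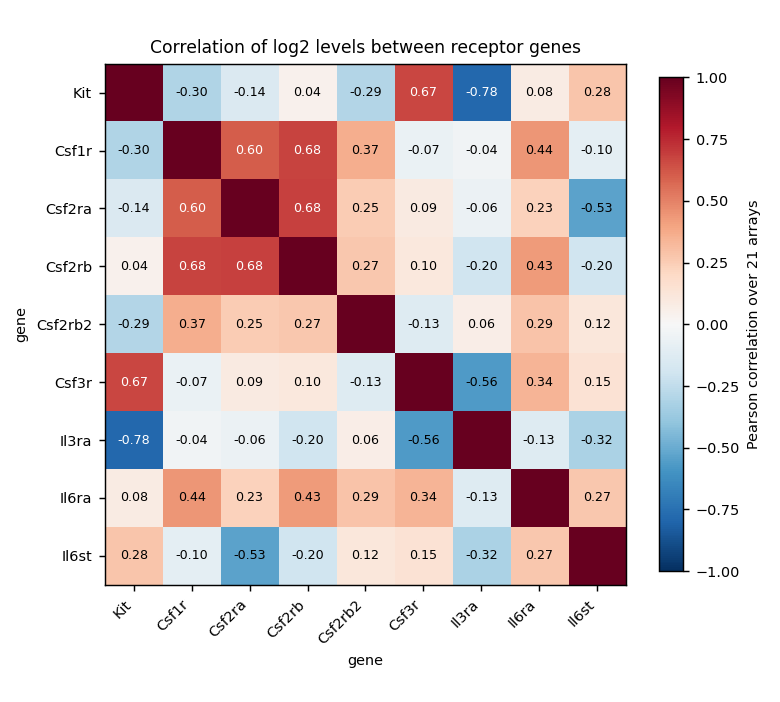
Pearson correlation of log2 levels between each pair of the 9 receptor genes over 21 arrays, given in each cell and by colour from -1 to 1. Csf1r, Csf2ra and Csf2rb form a block of positive values, and Kit and Il3ra have the most negative value (-0.78).

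The genes most like each receptor in their pattern over the 21 arrays were found by the same correlation among all genes. For Kit they were Cd47 (0.961), Fam168b (0.928) and Ddx5 (0.926). Cd47, a surface gene that shields cells from macrophages, averaged 11.47 in GMP-Dot and 10.73 in GMP-Control, and 11.49 in LSK-Dot and 12.43 in LSK-Control, the same order of groups as for Kit. For Csf1r they were Dnajc15 (0.913), Pdcd2l (0.884) and Ndufv2 (0.878), and for Csf2ra Tmem229b (0.843), Rab44 (0.818) and Pxylp1 (0.802). For Csf2rb they were Ints9 (0.881), Surf4 (0.877) and Sar1b (0.868), and for Csf2rb2 Nkain1 (0.817), Xdh (0.774) and Ppib (0.767). For Csf3r they were Tspan13 (0.809), Dgka (0.801) and Ffar2 (0.797), and for Il3ra Spata21 (0.919), Hmgxb3 (0.902) and Slc10a2 (0.899). For Il6ra they were Brat1 (0.848), Fech (0.803) and Mmachc (0.790), and for Il6st Hccs (0.855), Taf15 (0.816) and Btbd7 (0.805). None of these was another receptor of the set.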

How the data were processed

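The deposited table held 1 value for each of 45101 probe sets on each of 21 Affymetrix arrays. Per the labels, bone marrow cells were sorted, RNA was extracted with Trizol and a Qiagen kit, and biotin-labelled cRNA was hybridised. The deposited values are linear intensities from RMA, as the submitters' processing notes record, and neither a version nor a genome build is given in the sources used here. RMA is meant to make the arrays' distributions alike, so a shift of all genes together cannot be measured. The deposited distributions still differed, with upper quartiles of 6.18 to 6.78 on the log2 scale and median intensities of 25.2 to 31.5. The number of arrays limits the precision.

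Here log2 was taken with no pseudocount and no filter. The platform annotation paired 34958 probe sets with 1 gene symbol, 932 with several and 9211 with none, and 34754 of the Entrez identifiers matched RefSeq. Each of 18194 genes was represented by its probe set of highest mean level. limma 3.58.1 in R 4.3.3 fitted 4 group means to all arrays, with Benjamini-Hochberg adjustment over all genes and a threshold of 0.05, and a second fit covered every probe set. Intervals are 95% intervals of limma's moderated fit, and the script was tested on simulated data. Correlations over arrays are descriptions.

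The 10 receptor genes and all lists were chosen with earlier results of these data known. Named were all 10, the called genes of each surrounding list (up to 4 with the smallest p in a comparison, otherwise the 1 with the smallest p) and the 3 genes most correlated with each receptor. Alternatives were renormalization, centring, other probe set rules, a filter on dim genes, a trended robust variance, array weights, only the groups compared, the upper quartile as a covariate, a replicate block, averaging the closest pair, and leaving out each array. Leaving out LSK-Dot K1272 and K1359 together was added after the data were seen. Promoter windows were RefSeq's, build GRCm38.p6.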

Additional observations from a re-analysis of the deposited data

Results flagged for a closer look

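Il3ra on the LSK-Dot array K1272 was far from the rest of its group, at 8.36 on the log2 scale, where the next highest of the 6 arrays had 6.20. It was the 1 such case among the 36 combinations of a receptor gene and a group that were looked at, and chance alone would give about 1 in 20 groups. The same array had the lowest Kit level of its group (5.0) and the lowest correlation with its own group of all arrays (0.684). Without it, LSK-Dot differed from LSK-Control in Il3ra by -0.42, against -0.02 with it, and neither value passed the test.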

How the results depend on the processing

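Over 33 settings, 1382 of 1448 recomputed receptor values kept their direction and their side of the threshold, 11 lost the call, 16 gained it and 39 changed sign, 0 of them values that had been called. The number of receptor genes called between GMP-Control and LSK-Control, 2 here, was 1 after centring on medians, 1 without _s_at, _x_at and _a_at probe sets (both Kit probe sets are among those), 5 with only those groups fitted, 4 without LSK-Dot K1272 and K1359, and 1 to 3 when single arrays were left out. Array weights, whose estimate stopped before it converged, gave 4 there, 1 in LSK (Csf2rb2, adjusted p = 0.0464), 3 in GMP (Kit, Il3ra and Il6st, adjusted p 0.0465, 0.0132 and 0.0144) and 2 for the difference of effects (Kit and Il6st). These adjusted p-values were the lowest over the alternatives. In that fit the GMP-Dot arrays weighed 0.0080 (K1190), 0.36 (K1359), 0.43 (K1421) and 4.10 (K1272). Its GMP-Dot values thus rest mostly on the single array K1272.

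Signs turned in uncalled values. Array weights gave, in LSK, Csf2ra 0.078 and Csf2rb 0.39, in GMP, Csf3r 0.43 and Il6ra 0.14, and for GMP-Dot against LSK-Dot, Il6ra 0.084. Without K1272 and K1359, Csf2ra was 0.11 and Csf2rb 0.52 in LSK, and Csf1r -0.50 and Il3ra 0.14 for GMP-Dot against LSK-Dot. Quantile normalization gave Il3ra 0.12 in LSK, the mean of all probe sets gave Csf2rb 0.13 for the difference of effects, and the upper quartile covariate gave Csf3r -0.22 there and Kit 0.20 for GMP-Dot against LSK-Dot. With single arrays left out, LSK ranges were -0.45 to 0.16 for Csf2ra, -0.59 to 0.11 for Csf2rb, -0.42 to 0.16 for Il3ra and -0.26 to 0.044 for Il6st. GMP ranges were -0.87 to 0.020 for Csf2rb and -0.29 to 0.36 for Csf3r. The difference of effects for Csf2rb was -0.55 to 0.35, and GMP-Dot minus LSK-Dot was -0.81 to 0.18 for Kit and -0.32 to 0.27 for Il3ra. The causes were not tested.

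Of the 9 pairs of GMP and LSK arrays with the same K number, 1 had deviations from the group means correlated over 0.1 (range -0.40 to 0.26). Of these pairs, 0 matched best with their own number. Array quality enters such deviations, so they cannot show whether a pair came from the same animal. With the K number as a replicate block, 0 receptor genes were called between the control cell types (Kit -2.70, adjusted p = 0.0662, and Csf2ra 1.16, adjusted p = 0.184). The differences of effects were then 0.23 for Csf1r and 0.33 for Csf2rb.

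Over all genes, the calls in LSK (0 here) were 0 to 663, highest with array weights, 33 without LSK-Dot K1359 and 36 without K1272 and K1359. The calls in GMP (26 here) were 8 to 3778 and between the control cell types (2180 here) 454 to 7054, both highest with array weights. Single arrays left out gave 9 to 390 and 1111 to 5531, both highest without LSK-Dot K1272.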
